A study of Mus musculus with 18 samples.

Results

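Premyelinating oligodendrocyte markers are genes that mark the short committed stage between a dividing oligodendrocyte progenitor cell (OPC) and a myelinating oligodendrocyte. The 8 described here are Bcas1, Enpp6, Itpr2, Fyn, Bmp4, Neu4, Tspan2 and Cnksr3, taken from the deposited transcript table by gene name, out of 38046 genes in all. All 8 were found, and all 8 passed the filter of a mean of at least 1 TPM (a transcript abundance scaled for length and library total) that left 12894 genes for testing.

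RNA was measured in 18 libraries from clonal mouse OPC lines, themselves derived from primary cultures of neural stem cells. By their labels, 3 lines were control (clones D7, D3 and E8) and 3 were Thap1 null (clones 3F, D6 and 7F), where Thap1 encodes a zinc-finger transcription factor. Each clone was sampled once at each of 3 stages, so each genotype and stage had n = 3. At the OPC stage (day 0) the cells were in OPC growth medium with PDGF-AA, the mitogen that keeps progenitors dividing. At DIV2 and DIV4 they had spent 2 and 4 days in oligodendrocyte differentiation medium with thyroid hormone (T3), given in the labels as 40 μg/ml. Each line is 1 clone, and how the null lines were made and how many animals they came from are not given in the labels. A p value therefore measures the spread between these clones.

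OPCs that leave the cell cycle pass through a committed, premyelinating stage before they switch on the bulk of the myelin genes, and many of the new cells never go further. The stage is marked by genes that rise at commitment, many of which decline again as myelin genes take over. Among them are a choline-specific phosphodiesterase (Enpp6), an intracellular calcium channel (Itpr2), a Src-family kinase (Fyn), a secreted ligand (Bmp4), a sialidase (Neu4), a tetraspanin (Tspan2), a signalling scaffold (Cnksr3) and a brain-enriched protein of cells that begin to myelinate (Bcas1).

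The 250 bases before the annotated start site were read for the members on which the later comparisons turn, since Itpr2 was lower in null clones at DIV2, Bmp4 had the highest change of the members in null relative to control from OPC to DIV2, and Enpp6 and Cnksr3 varied together. They are from the RefSeq promoter table for GRCm38.p6, 5′ to 3′ on the gene's strand, in which 7 of the 8 members were matched. Bcas1 had no entry. Capitals mark the THAP1 core TNNNGGCA, searched on both strands.
Itpr2 (chr6:146502224-146502473, minus strand): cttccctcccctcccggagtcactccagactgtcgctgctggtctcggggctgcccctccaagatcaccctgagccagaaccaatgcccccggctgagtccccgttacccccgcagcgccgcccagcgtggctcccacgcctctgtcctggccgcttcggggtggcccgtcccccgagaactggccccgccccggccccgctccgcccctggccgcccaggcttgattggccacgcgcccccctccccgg
Bmp4 (chr14:46390670-46390919, minus strand): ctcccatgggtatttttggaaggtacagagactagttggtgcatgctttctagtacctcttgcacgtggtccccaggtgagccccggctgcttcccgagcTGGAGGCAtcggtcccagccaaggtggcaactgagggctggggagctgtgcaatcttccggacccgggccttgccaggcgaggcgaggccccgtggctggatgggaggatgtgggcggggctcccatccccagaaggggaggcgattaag
Enpp6 (chr8:46986637-46986886, plus strand): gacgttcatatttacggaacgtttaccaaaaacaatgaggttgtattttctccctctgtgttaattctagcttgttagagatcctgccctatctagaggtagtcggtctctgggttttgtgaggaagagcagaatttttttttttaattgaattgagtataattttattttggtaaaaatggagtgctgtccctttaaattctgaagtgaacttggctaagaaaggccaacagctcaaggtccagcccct
Cnksr3 (chr10:7212238-7212487, minus strand): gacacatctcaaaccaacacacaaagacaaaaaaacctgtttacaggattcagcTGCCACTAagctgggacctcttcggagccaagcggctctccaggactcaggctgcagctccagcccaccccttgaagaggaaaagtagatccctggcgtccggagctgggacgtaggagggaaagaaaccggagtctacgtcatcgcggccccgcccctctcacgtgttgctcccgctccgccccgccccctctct
The core is short, and 36.4% of the 32851 promoters in the table hold it within the same 250 bases. Bmp4 held 1 match, Cnksr3 held 1 on the opposite strand, and Tspan2 held 1 before the first of its 2 annotated starts. None was found in this window of Itpr2, Enpp6, Fyn or Neu4. The E-box CANNTG, found in 66.2% of promoters, occurred 3 times in Bmp4, 2 times in Cnksr3, 1 time in Neu4, 2 times before the first and 1 time before the second start of Tspan2, and not in Itpr2, Enpp6 or Fyn. In Cnksr3, 1 of those was CAGCTG, a form held by 13.0% of promoters and by no other member. The MYRF core CTGGNAC, held by 16.1% of promoters, occurred 2 times in Cnksr3 and 1 time in Bmp4, and the SOX core ACAAAG, held by 16.5%, occurred 1 time in Cnksr3 and 1 time before the second start of Tspan2. A match of this kind is a description of letters and not evidence of a bound site. The base composition ranged from 38.4% GC in Enpp6 to 74.4% in Itpr2, against a median of 52.4% over all promoters.

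Some facts of the libraries touch every value. Protein-coding transcripts held between 5.05% and 9.0% of TPM in control OPCs and between 19.1% and 28.4% in null OPCs, and 20.8% to 38.8% in the differentiated libraries. TPM was therefore divided by a median-of-ratios factor, 0.125 to 0.317 in control OPCs, 0.723 to 1.36 in null OPCs and 0.956 to 2.01 at the later stages, and "rescaled TPM" below means this. TPM keeps no read depth, so no counting error could be given. Protein-coding Thap1 transcripts were at 1.91 to 4.39 rescaled TPM in the 9 control libraries and 0.197 to 0.776 in the 9 null libraries. All libraries carried the lineage genes Olig2 (24.2 to 129) and Sox10 (49.9 to 123), and OPC libraries had 72.0 to 104 of Pdgfra, the PDGF receptor of progenitors. The library labelled control D3 OPC stood apart, with 1.44 of the proliferation gene Mki67 against 25.8 and 31.5 in D7 and E8, and 88.7 of the myelin gene Mbp against 7.13 and 4.49. The library labelled control D7 DIV4 had 4769.6 of Mbp against 925 and 665 in D3 and E8, and 0.176 of the astrocyte gene Gfap against 102 and 238. Where leaving out one of these libraries ended or made a call of a member, both values are given.

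The shared pattern was a peak at DIV2. In 40 of the 48 pairs of member and clone the level was highest at DIV2, 19 of 24 in control and 21 of 24 in null clones. Any margin was counted, among them log2 changes to DIV4 of -0.02 (Itpr2, null 7F), -0.03 (Neu4, control D7) and -0.04 (Fyn, null 7F). No member's change from DIV2 to DIV4 was called by limma with all 18 libraries and without the clone as a block. Over all genes tested, 28.0% peaked at DIV2, averaged over the 6 clones. The count was 33 of 40 without clone D3, 34 of 40 without clone D7 and 40 of 48 on the deposited TPM. Bcas1, Enpp6 and Cnksr3 peaked at DIV2 in 6 of 6 clones, Itpr2, Fyn and Neu4 in 5, Tspan2 in 4 and Bmp4 in 3. The peak was not particular to the members. The myelin gene Mbp was highest at DIV2 in 2 of 3 control and 3 of 3 null clones, and the myelin gene Mog in 1 of 3 and 3 of 3.

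**Figure D1:**
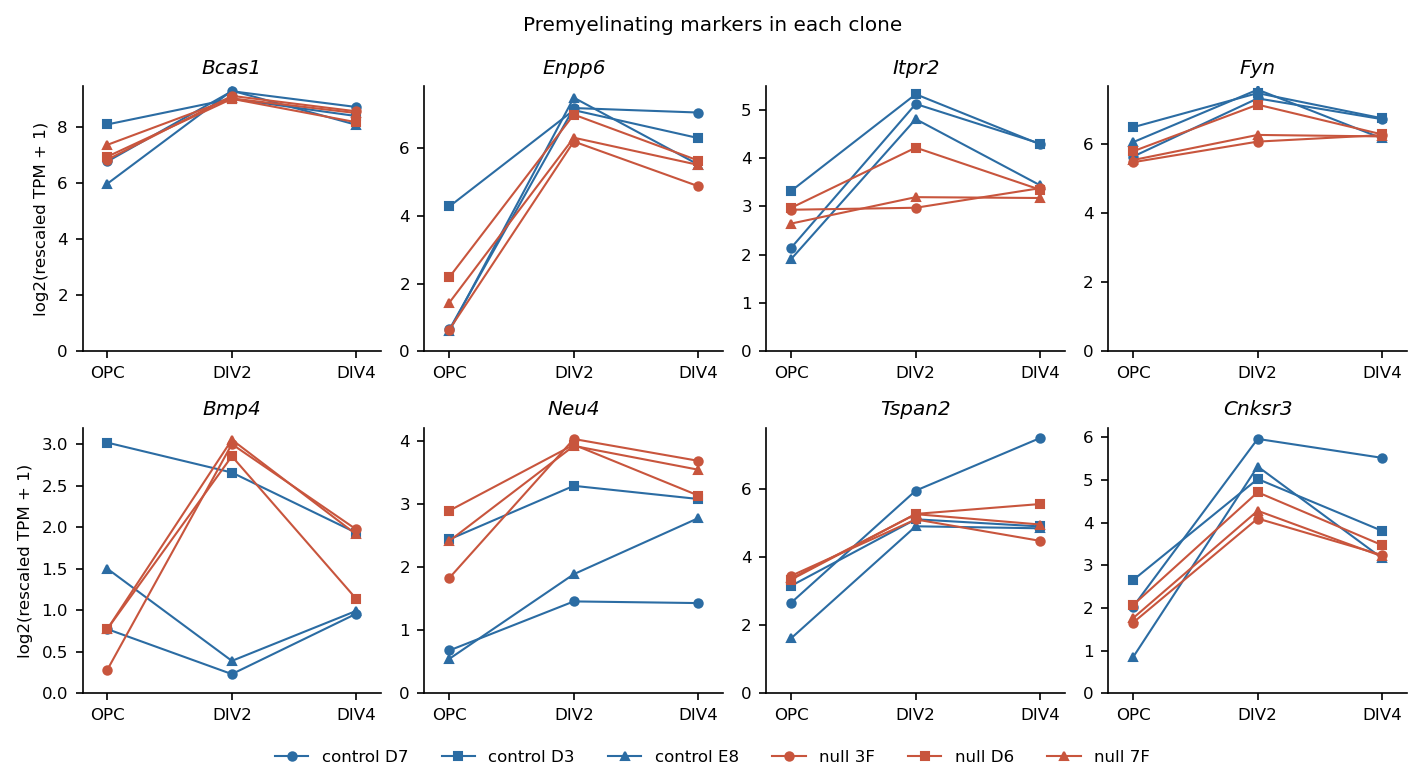
Level of each member, as log2(rescaled TPM + 1), at the OPC stage, DIV2 and DIV4, with 1 line per clone (blue control, red Thap1 null). Bcas1, Enpp6 and Cnksr3 peak at DIV2 in 6 of 6 clones, whereas Bmp4 peaks there only in the 3 null clones.

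Between OPC and DIV2, 6 of the 8 members rose in control clones, against 17.3% of all genes tested called higher and 33.7% called in either direction. In null clones 7 of 8 rose, against 13.9% called higher and 26.9% in either direction. The median log2 change of the members was 2.43 in control and 1.91 in null, and of all genes 0.03 and -0.01. Members that rose in both genotypes were Bcas1, Enpp6, Fyn, Tspan2 and Cnksr3, while Itpr2 passed the test only in control and Neu4 and Bmp4 only in null clones. No interaction of genotype and stage passed for a member on rescaled TPM with all 18 libraries and without the clone as a block. Leaving out any 1 null clone left 3 members called in null, each time Bcas1, Enpp6 and Cnksr3. All values are limma changes on log2(rescaled TPM + 1) with Benjamini-Hochberg adjustment over all genes, a scale that understates the change of low genes.

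Enpp6 encodes a phosphodiesterase of choline lipids and is a widely used mark of newly formed oligodendrocytes. In control clones D7, D3 and E8 it stood at 0.566, 18.3 and 0.515 rescaled TPM at the OPC stage, 143, 137 and 177 at DIV2, and 130.4, 77.0 and 44.4 at DIV4. In null clones 3F, D6 and 7F the values were 0.564, 3.56 and 1.71, then 71.7, 125 and 77.6, then 28.2, 48.3 and 44.1. No DIV2 library overlapped an OPC library, D3 was far above the other control clones as OPCs, and at DIV2 the highest null value was under the lowest control value. Enpp6 rose by the most of the 8 members, with a log2 change of 5.41 (SE 0.75, limma adjusted p = 0.000145) in control and 5.06 (SE 0.75, adjusted p = 0.000302) in null. Without the D3 OPC library the control rise was 6.63 (SE 0.45).

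Enpp6 was lower from DIV2 to DIV4 in 6 of 6 clones, but the changes of -0.98 in control and -1.16 in null did not pass (limma adjusted p = 0.734 and 0.485). Null minus control was -0.77 at DIV2 (95% interval -2.37 to 0.83, adjusted p = 0.721) and -0.95 at DIV4 (-2.55 to 0.65, adjusted p = 0.522). The genotypes overlapped at DIV4, where null D6 exceeded control E8.

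Cnksr3 encodes a scaffold of the connector enhancer of KSR family, which binds components of Ras and MAP kinase signalling. Its control values in D7, D3 and E8 were 3.10, 5.31 and 0.807 rescaled TPM as OPCs, 61.3, 31.5 and 38.8 at DIV2, and 44.8, 13.0 and 7.98 at DIV4. Its null values in 3F, D6 and 7F were 2.16, 3.21 and 2.40, then 16.1, 25.2 and 18.4, then 8.45, 10.1 and 8.26. All 6 clones had their highest value at DIV2, the null clones all lay below the control clones there, and control D7 stayed high at DIV4. The rise to DIV2 was 3.58 (SE 0.51, limma adjusted p = 0.000164) in control and 2.53 (SE 0.51, adjusted p = 0.00219) in null.

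From DIV2 to DIV4 the change of Cnksr3 in control was -1.27 (SE 0.51, limma adjusted p = 0.367), and without the D7 DIV4 library it was -1.95 (SE 0.42, adjusted p = 0.0175), the only member called in that fit, in which 5.65% of all genes were called. In null it was -1.06 (adjusted p = 0.313). The genotype difference was -1.07 at DIV2 (95% interval -2.15 to 0.01, adjusted p = 0.353) and -0.86 at DIV4 (adjusted p = 0.372), the latter -0.18 without the D7 DIV4 library.

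By group mean of rescaled TPM, a scale per transcript length, Bcas1 was the most abundant member at every stage. It encodes a brain-enriched protein that marks oligodendrocytes at the onset of myelination. Control D7, D3 and E8 had 109, 274 and 62.5 rescaled TPM as OPCs, 624, 518 and 633 at DIV2, and 422, 337 and 271 at DIV4. Null 3F, D6 and 7F had 114, 123 and 165, then 556, 517 and 522, then 379, 289 and 363. The genotypes overlapped at all 3 stages, and in each clone the order was DIV2, DIV4, OPC. Bcas1 rose to DIV2 by 2.25 (SE 0.37, limma adjusted p = 0.000475) in control and by 2.00 (SE 0.37, adjusted p = 0.00135) in null, while the later changes of -0.80 and -0.64 did not pass (adjusted p = 0.468 and 0.418).

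The interval for the genotype difference of Bcas1 was -0.94 to 0.64 at DIV2 and -0.77 to 0.81 at DIV4 (95%, log2 scale), around -0.15 and 0.02. Those bounds give the differences compatible with these clones, and not the smallest difference that the test could detect. At the OPC stage the difference was 0.10 (adjusted p = 0.901), and 0.67 (adjusted p = 0.0769) without the D3 OPC library.

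**Figure D2:**
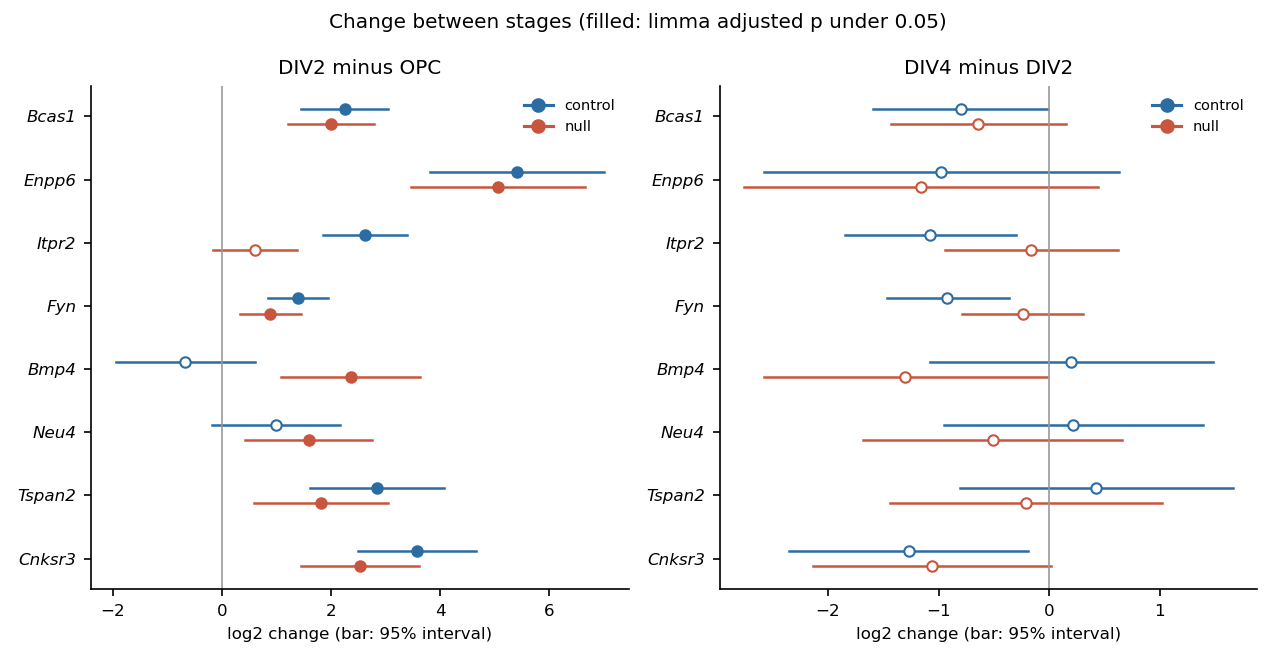
Log2 change of each member between stages in control (blue) and null (red) clones, with 95% intervals, where a filled point passed the limma test at an adjusted p under 0.05. From OPC to DIV2, 6 control and 7 null points are filled, and from DIV2 to DIV4 none is.

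Tspan2 encodes a tetraspanin of the oligodendrocyte membrane. Control D7, D3 and E8 had 5.35, 7.95 and 2.08 rescaled TPM as OPCs, 61.0, 33.6 and 29.0 at DIV2, and 179.9, 28.9 and 27.8 at DIV4. Null 3F, D6 and 7F had 9.97, 9.15 and 9.38, then 33.5, 37.6 and 37.4, then 21.3, 46.2 and 30.1. D7 at DIV4 stood far above all others, and as OPCs each null clone lay above each control clone. Tspan2 rose to DIV2 by 2.84 (SE 0.58, limma adjusted p = 0.00198) in control and 1.82 (SE 0.58, adjusted p = 0.0293) in null. From DIV2 to DIV4 control changed by 0.42 (adjusted p = 0.875), or by -0.45 (adjusted p = 0.613) without D7 at DIV4. The genotype difference at DIV4 was -0.75 (adjusted p = 0.510) with that library and 0.12 (adjusted p = 0.907) without it, so its sign was set by 1 library.

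Fyn encodes a Src-family tyrosine kinase that relays axonal and matrix contact to the oligodendrocyte cytoskeleton. Control D7, D3 and E8 had 49.1, 89.3 and 65.9 rescaled TPM as OPCs, 160.0, 178 and 191 at DIV2, and 105, 107 and 71.1 at DIV4. Null 3F, D6 and 7F had 43.7, 54.7 and 45.7, then 66.6, 141 and 76.3, then 76.1, 77.1 and 74.0. At DIV2 the null clones all lay below the control clones, 3F and 7F by the wider margin, and at DIV4 the genotypes overlapped. Fyn rose by 1.40 (SE 0.26, limma adjusted p = 0.00109) in control and 0.89 (SE 0.26, adjusted p = 0.0191) in null. The DIV2 genotype difference of -0.96 (95% interval -1.52 to -0.41) did not pass (adjusted p = 0.0660), and did so without the D3 OPC library (adjusted p = 0.0423), where 3.60% of all genes were called.

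On rescaled TPM, with all 18 libraries, Itpr2 was the only member called between genotypes. It encodes an inositol trisphosphate receptor, a channel that releases calcium from the endoplasmic reticulum. Control D7, D3 and E8 had 3.43, 9.01 and 2.77 rescaled TPM as OPCs, 33.8, 39.0 and 27.0 at DIV2, and 18.7, 18.5 and 9.83 at DIV4. Null 3F, D6 and 7F had 6.63, 6.85 and 5.26, then 6.85, 17.6 and 8.14, then 9.40, 9.17 and 8.03. The genotypes did not overlap at DIV2 or DIV4, with null lower, and at DIV2 null 3F had nearly its OPC level while D6 was the highest null clone. In control clones Itpr2 rose by 2.62 (SE 0.36, limma adjusted p = 0.000144), and in null clones its change was 0.61 (SE 0.36, 95% interval -0.17 to 1.38, adjusted p = 0.24).

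At DIV2 Itpr2 was lower in null by 1.62 on the log2 scale, a change of -1.62 (SE 0.36, 95% interval -2.40 to -0.85, limma adjusted p = 0.0263), and by 1.83 on the deposited TPM (change -1.83, adjusted p = 0.0216, with 0.900% of all genes called lower). Of all genes, 1.15% were called lower and 2.78% in either direction in that comparison. In bulk RNA, fewer cells of a type and less RNA per cell cannot be told apart. The call ended without control D7 (adjusted p = 0.0569), null 3F (0.269) or null 7F (0.249), without a filter on low genes (0.0638), on protein-coding transcripts alone (0.0618) and in a fit of the 6 libraries alone (0.0771), with changes between -2.0 and -1.38 whichever clone was left out. At DIV4 the difference was -0.71 (adjusted p = 0.291).

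Whether the rise of Itpr2 itself differed was tested as an interaction, in which the control change is subtracted from the null change. It was -2.01 (SE 0.51, limma adjusted p = 0.0962), not past the threshold. With the clone as a block the adjusted p was 0.0496, and without the D3 OPC library the value was -2.44 (adjusted p = 0.0132). Of all genes, 0.349%, 0.605% and 2.79% were called in these 3 fits.

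Neu4 encodes a sialidase, an enzyme that trims sialic acid from glycans and gangliosides. Control D7, D3 and E8 had 0.604, 4.44 and 0.463 rescaled TPM as OPCs, 1.75, 8.80 and 2.71 at DIV2, and 1.70, 7.48 and 5.87 at DIV4. Null 3F, D6 and 7F had 2.56, 6.46 and 4.35, then 15.4, 14.4 and 14.2, then 11.9, 7.81 and 10.7. At DIV2 and DIV4 each null clone lay above each control clone, and D3 was the highest control clone at every stage. The rise to DIV2 passed in null, at 1.59 (SE 0.55, limma adjusted p = 0.0443), a call that also ended with a pseudocount of 0.1 (adjusted p = 0.0909), without a filter (0.103), without control E8 (0.0562) and on protein-coding transcripts (0.0563). In control it was 0.99 (SE 0.55, adjusted p = 0.181), with an adjusted p of 0.0346 with the clone as a block, where 37.7% of all genes were called. Without the D3 OPC library the control rise was 1.60 (adjusted p = 0.0245), where 39.6% were called.

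The genotype difference of Neu4 was 1.16 in OPCs (limma adjusted p = 0.184), 1.76 at DIV2 (SE 0.55, 95% interval 0.58 to 2.93, adjusted p = 0.118) and 1.03 at DIV4 (adjusted p = 0.314). These calls depended on clone D3. Without it the OPC difference was 1.77 (adjusted p = 0.00987), that at DIV2 2.29 (0.00734) and that at DIV4 1.35 (0.0449), among 16.5%, 2.39% and 8.59% of all genes called. Without the D3 OPC library alone, it passed as well (1.77, adjusted p = 0.0313), among 17.5% of all genes called.

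Bmp4 departed from the other members. It encodes a secreted ligand that restrains oligodendrocyte maturation and is made by committed precursors themselves. Control D7, D3 and E8 had 0.710, 7.11 and 1.83 rescaled TPM as OPCs, 0.175, 5.32 and 0.312 at DIV2, and 0.945, 2.82 and 0.992 at DIV4. Null 3F, D6 and 7F had 0.220, 0.714 and 0.714, then 7.01, 6.24 and 7.31, then 2.93, 1.2 and 2.77. On this scale the 3 control clones were lower at DIV2 than as OPCs and the 3 null clones were higher. On deposited TPM the control clones were higher at DIV2 too, with 0.208, 2.26 and 0.230 as OPCs and 0.245, 9.13 and 0.466 at DIV2. At DIV2 each null clone lay above each control clone, with D3 close below.

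In null clones Bmp4 rose to DIV2 by 2.36 (SE 0.60, limma adjusted p = 0.00928) and its change to DIV4 was -1.30 (SE 0.60, adjusted p = 0.296, and 0.0441 with the clone as a block, where 4.06% of all genes were called). In control its change to DIV2 was -0.67 (SE 0.60, adjusted p = 0.422), -0.04 without the D3 OPC library and 0.65 on deposited TPM (adjusted p = 0.352). The interaction was 3.03 (SE 0.85, 95% interval 1.22 to 4.84, adjusted p = 0.128). With the clone as a block its adjusted p was 0.0226, and without clone D3 it was 3.18 (adjusted p = 0.00608), among 2.02% of all genes called. The DIV2 genotype difference was 1.88 (SE 0.60, adjusted p = 0.129) with D3 and 2.66 (SE 0.28, adjusted p = 0.000412) without it.

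Between genotypes the members thus fell into groups at DIV2. Enpp6, Itpr2, Fyn and Cnksr3 were lower in all 3 null clones than in any control clone, 4 of 8 against 15.5% of all genes tested. Bmp4 and Neu4 were higher in each null clone, 2 of 8 against 14.9%. Together 6 of 8 members did not overlap, against 30.4% of all genes in either direction. In OPCs only Tspan2 did not overlap, 1 of 8 against 24.8% of all genes in either direction, and at DIV4 Itpr2 was lower and Neu4 higher, 2 of 8 against 26.5%. By the limma test with all 18 libraries no member was called in OPCs (11.5% of all genes were) or at DIV4 (4.82%). At unadjusted p under 0.05 the comparison of OPCs had 3590 genes and that at DIV4 2642, and no member was among them.

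**Figure D3:**
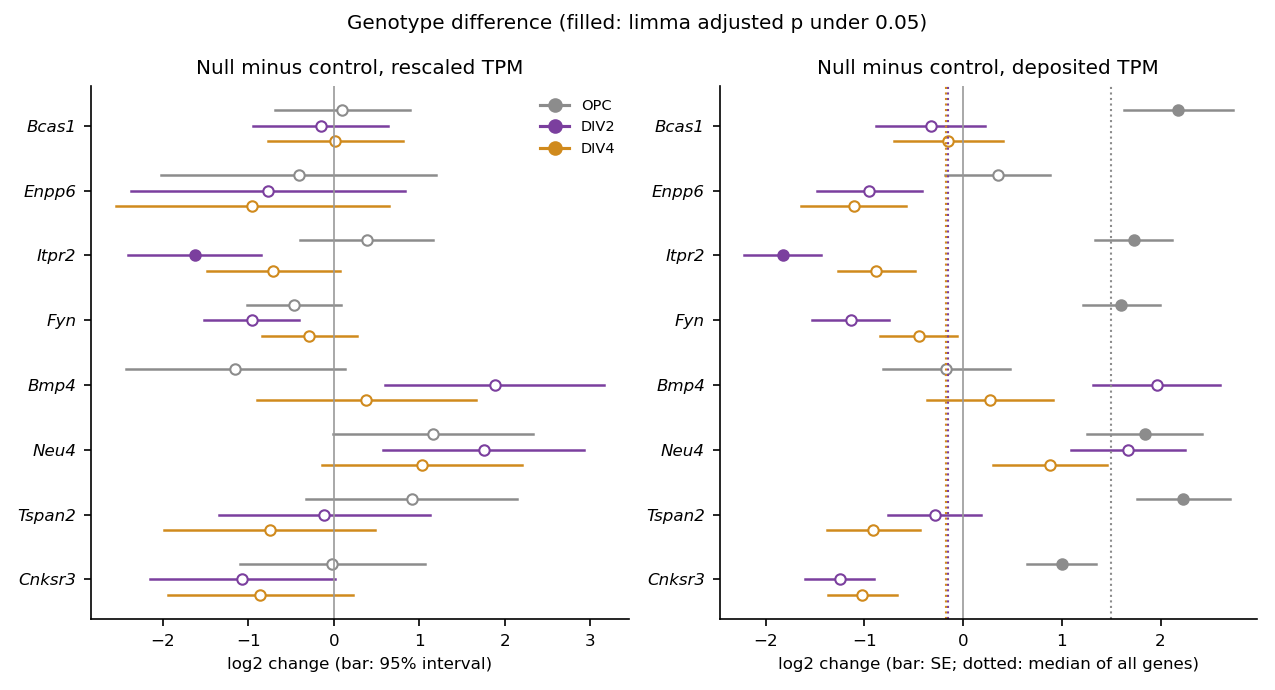
Null minus control log2 difference of each member in OPCs (grey), at DIV2 (purple) and at DIV4 (orange), on rescaled TPM with 95% intervals (left) and on deposited TPM with SE bars (right), where dotted lines give the median of all genes. Filled points passed the limma test, only Itpr2 at DIV2 on rescaled TPM. On deposited TPM 6 OPC points are filled, around an all-gene median of 1.5.

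The scaling decides the comparison in OPCs. On the deposited TPM 6 of 8 members were called higher in null OPCs, all but Enpp6 and Bmp4, against 80.7% of all genes called higher, and the median change was 1.67 for members and 1.5 for all genes. The interaction from OPC to DIV2 called 5 members lower and Bmp4 higher on the deposited TPM, against 72.4% of all genes called lower and 0.271% higher. On rescaled TPM, with all 18 libraries and without the clone as a block, neither comparison called a member. Itpr2 and Bmp4 were among 1753 genes with an interaction at unadjusted p under 0.05. Between DIV2 and DIV4 no member was called in control (0.233% of all genes) or in null clones (2.03%), nor in the interaction (0.0233%). At unadjusted p under 0.05 these comparisons had 1342, 2131 and 713 genes, among them Bcas1, Itpr2, Fyn and Cnksr3 in control and Bmp4 in null. The medians of the members were -0.86 and -0.57 in control and null, against 0.01 and -0.01 for all genes, and 41 of 48 pairs of member and clone were lower at DIV4 than at DIV2, against 49.2% of all genes.

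Other genes of the same stages were counted over fixed lists. Of 18 tested genes of committed and newly formed oligodendrocytes, 12 rose and 1 fell from OPC to DIV2 in control and 11 rose in null clones, against 17.3% and 13.9% of all genes called higher. The gene that fell, Lims2 (-1.40), had 0.70 on deposited TPM, where 17 rose in control, against 83.1% of all genes. The largest rise was Tmem163, a zinc transporter, at 5.77 in control and 3.98 in null (limma adjusted p = 4.78e-07 and 9.82e-06). Tmem163 was also the only one of that list lower in null at DIV2 (-1.78, adjusted p = 0.0160). Gpr17, a receptor of this stage, had 17.9 to 135 rescaled TPM in control OPCs and 81.1 to 96.3 at DIV2, and its control change of 0.86 did not pass (adjusted p = 0.174). Without the D3 OPC library, which had the 135, it was 1.61 (adjusted p = 0.000752). Control clones had 63.6 to 86.8 of Gpr17 at DIV4. Null clones had 46.1 to 61.5 as OPCs, 64.9 to 99.7 at DIV2 and 85.9 to 118 at DIV4. Gpr17 was highest at DIV2 in 2 of 3 control and 1 of 3 null clones. At DIV4, 3 of the 18 were lower in null, against 4.82% of all genes called in either direction: Tmem163 (-1.94, adjusted p = 0.00772), the semaphorin Sema5a (-1.78, adjusted p = 0.0153) and the transcription factor Tcf7l2 (-1.23, SE 0.29, adjusted p = 0.0250). The call of Tcf7l2 ended without control D7 at DIV4 (-0.91, adjusted p = 0.0652) and without clone D3 (adjusted p = 0.0562).

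Genes of the stages before and after were counted likewise. Of 12 tested OPC markers, 9 fell and 1 rose to DIV2 in control, and 7 fell and 1 rose in null clones, against 16.4% and 13.0% of all genes called lower. On deposited TPM 1 fell and 2 rose in control and 3 fell and 1 rose in null, against 0.558% and 3.51% of all genes called lower. Pdgfra fell by 3.44 on the log2 scale in control and by 3.97 in null (limma adjusted p = 0.00113 and 0.000529). On deposited TPM its control change was -0.80 (adjusted p = 0.362). From DIV2 to DIV4 none of the 12 was called by limma. Their median changes were 1.05 in control and 1.13 in null, against 0.01 and -0.01 for all genes. At unadjusted p under 0.05 there were 5 and 6. Pdgfra was higher at DIV4 than at DIV2 in each clone, by 0.30 to 3.29 in control and 0.94 to 1.33 in null. In null OPCs Cspg4 and Megf11 were lower than in control (-1.38 and -1.07, adjusted p = 0.0320 and 0.0340), but not on deposited TPM (0.54 and 0.53). Of 17 tested genes of mature oligodendrocytes, 13 rose from OPC to DIV2 in control and 11 in null clones. The shares of all genes called higher were 17.3% and 13.9%. Mbp rose by 6.17 and 5.38 (limma adjusted p = 0.000447 and 0.00143). In null OPCs 1 of the 17 was lower (Trf, -1.88, adjusted p = 0.0387, but -0.47 on deposited TPM, 0.326). At DIV2, 2 were lower, Trf (-4.07, adjusted p = 0.000592) and Mobp (-3.56, 0.0230). At DIV4, 3 were lower, led by Mobp at -5.51 (adjusted p = 0.000986). Of all genes, 11.5%, 2.78% and 4.82% were called in either direction. The list summed to 3992 to 7072 rescaled TPM in control and 3456 to 3962 in null clones at DIV2. At DIV4 it summed to 13640.2 in control D7 and 2145 to 3202 in the other libraries. The DIV4 genotype difference of Mog was -2.43 (adjusted p = 0.0718), with -1.47 (0.195) without control D7 at DIV4 and -3.26 (0.00397) without clone D3.

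The genes known to work with the members were counted in the same way, beside 11.5%, 2.78% and 4.82% of all genes that passed between genotypes at the OPC stage, DIV2 and DIV4 respectively. Of 15 tested BMP pathway genes, which include receptors, SMADs and the ID targets, none was called between genotypes at any stage by limma on rescaled TPM (1, 0 and 2 at unadjusted p under 0.05 in OPCs, at DIV2 and at DIV4). On deposited TPM 7 were called higher in null OPCs, against 80.7% of all genes. From OPC to DIV2 Smad7, an inhibitor of the pathway, rose by 2.37 in control (limma adjusted p = 0.00325), and the ligand Bmp7 fell in both genotypes (-1.78 and -1.63, adjusted p = 0.00235 and 0.00471), though on deposited TPM its control change was 0.62 (adjusted p = 0.208). Of 14 tested genes of inositol trisphosphate and calcium signalling none was called between genotypes by limma on rescaled TPM (3, 1 and 1 at unadjusted p under 0.05), while the phospholipase Plcg2 rose to DIV2 by 3.02 in control and 2.32 in null. Of 19 tested genes around Fyn, the genotype test called 3 as OPCs, 1 at DIV2 and 4 at DIV4. In OPCs Itga6 was higher in null (0.96), and Ncam1 and Csk were lower (-0.80 and -0.74) but higher on deposited TPM. At DIV2 Mapt, the microtubule-associated protein tau, was higher in null by 2.38 (adjusted p = 0.000116). At DIV4 Mapt (1.37, adjusted p = 0.00977) and Ncam1 (0.59) were higher and Rhoa (-0.50) and Ptpra (-0.48) lower, and none of these 4 passed on deposited TPM. Of 10 tested sialidase and sialyltransferase genes, St6gal1 was higher in null at DIV2 by 2.09 (adjusted p = 0.00682). Gne was lower in null OPCs (-1.03, adjusted p = 0.00576), but not on deposited TPM (0.63, adjusted p = 0.136).

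Among 15 tetraspanins Tspan9 and Cd81 were lower in null at DIV2 (-1.63 and -1.27, limma adjusted p = 0.0210 and 0.0355) and Cd63, a tetraspanin of lysosomes and exosomes, was higher (1.01, adjusted p = 0.0178). On deposited TPM the calls of Cd81 (-1.45, adjusted p = 0.0637) and Cd63 (0.83, adjusted p = 0.573) ended. Tspan9 and Cd81 were also lower in null at DIV4 (-1.48 and -1.26, adjusted p = 0.0263 and 0.0280). Cd63 was also higher in null OPCs (0.90, adjusted p = 0.0139). Of 17 tested genes of the ENPP family and choline lipids, none was called by limma between genotypes at DIV2 or DIV4 (2 and 3 at unadjusted p under 0.05). In OPCs 3 were higher and 1 lower in null. On deposited TPM 17 were higher in null OPCs, against 80.7% of all genes. The choline transporter Slc44a1 rose to DIV2 by 3.53 in control and 3.38 in null. Of 11 tested genes of CNK and Ras scaffolding, Nras was lower in null at DIV2 by 0.57 (change -0.57, adjusted p = 0.0424). This did not pass on deposited TPM (-0.75, adjusted p = 0.577). Map2k2 was lower in null OPCs (-0.54, adjusted p = 0.0139) but higher on deposited TPM (1.44). Mapk3 rose to DIV2 by 2.75 in control and 2.13 in null.

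Markers of other cell types were summed per library. Astrocyte markers (11 of 12 tested, none called between genotypes by limma, and 0, 1 and 4 at unadjusted p under 0.05 in OPCs, at DIV2 and at DIV4) summed to 72.6 to 172 rescaled TPM in control and 110.1 to 130.2 in null OPCs, with Gja1 listed at 0. The sums were 128 to 304 and 283 to 301 at DIV2, and 105 to 656 and 479 to 528 at DIV4. The gene with the highest mean at DIV2 was S100b, at 129.5 in control and 224 in null clones. Gfap went the other way there, with means of 12.6 and 3.92. At DIV4 the highest mean was that of Gfap in control (114) and of S100b in null clones (195). Control D7 at DIV4 had the lowest DIV4 sum, 105, and the highest Tspan2, Cnksr3 and Enpp6 of that stage. Neuronal markers summed to 69.2 to 159, mostly from Map2 and Tubb3, with 3 of 12 genes tested. Microglial, mesenchymal and endothelial sums were at most 4.78, 2.56 and 5.46, and C1qa and C1qb of microglia and Cldn5 of endothelium were listed at 0 in all 6 groups. The part of the astrocyte genes in the members' values was not tested.

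Some members varied together and others in opposite directions across the 12 libraries of DIV2 and DIV4, which share differentiation medium but differ in clone and day. Pearson's r on the log2 scale was 0.95 for Itpr2 and Fyn, 0.93 for Enpp6 and Cnksr3, and 0.88 for Bmp4 and Neu4. Neu4 had -0.63 with Cnksr3, -0.62 with Tspan2 and -0.60 with Itpr2, and Bmp4 had -0.37 with Itpr2. Bcas1 had 0.11 with Bmp4 and 0.12 with Tspan2. These are descriptions over libraries that share stages and clones. Among 7554 other genes with a mean of at least 5 rescaled TPM, the pattern over all 18 libraries most like Enpp6 was that of Sirt2 (r = 0.98), and for Bcas1 it was Rnd2 (0.97). Dock9 was closest to Cnksr3 (0.97), Trim13 to Itpr2 (0.92), Ctnnal1 to Fyn (0.96), Ndrg4 to Neu4 (0.93) and Hps5 to Tspan2 (0.96). Bmp4 had no close match, with at most 0.74, and Wdfy1 was closest to the mean of the members (0.98).

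At the transcript level the larger share of Bcas1 was Bcas1-201 in OPCs and Bcas1-208 at DIV2 and DIV4, in all 6 clones, a stage difference that was not tested. Bcas1-208 (ENSMUST00000154650), has 7 exons and starts within the gene, at chromosome 2, 170346991 to 170406509 of GRCm38, minus strand, and the gene spans 170346991 to 170427845. The share of Bcas1-208 in Bcas1 TPM was 33.3%, 39.4% and 31.5% in control D7, D3 and E8 as OPCs, 57.9%, 51.0% and 55.7% at DIV2, and 64.5%, 51.5% and 57.0% at DIV4. In null 3F, D6 and 7F it was 35.5%, 40.2% and 38.6%, then 52.8%, 53.4% and 49.1%, then 47.7%, 51.0% and 48.5%. Each of the 6 clones had a higher share at DIV2 than as OPCs, with no overlap of the stages. The full-length Bcas1-201, with 13 exons, went from 39.4% to 48.3% in OPCs to 33.6% to 42.2% at DIV2.

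**Figure D4:**
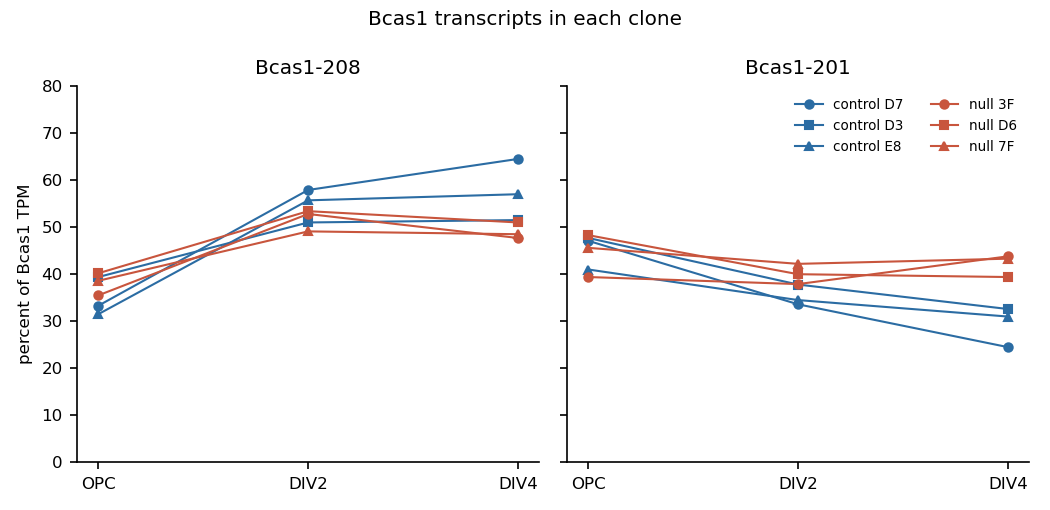
Share of Bcas1 TPM, in percent, assigned to transcripts Bcas1-208 (left) and Bcas1-201 (right) at each stage, with 1 line per clone (blue control, red null). Bcas1-208 lies between 31.5% and 40.2% in the 6 OPC libraries and between 49.1% and 57.9% at DIV2.

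The share of the most abundant transcript was compared between genotypes for the 7 members with more than 1 transcript, at 3 stages. Over these 21 two-sided exact permutation tests with n = 3 against 3, the smallest p was 0.10, which is the smallest this design allows, and the lowest Benjamini-Hochberg value was 0.350. For Itpr2 at DIV2 the main transcript held 60.9% ± 2.50 of Itpr2 TPM in control (SD, n = 3) against 51.6% ± 2.81 in null clones (SD, n = 3; two-sided exact permutation p = 0.10). Over all stages, 2 of 39 transcripts of members, both of Bcas1, had shares that did not overlap between genotypes in the same direction at each stage, against 0.518% of 47696 transcripts of all genes that have more than 1 transcript, pass the same filter and are above 0 in every library. The split between transcripts that share exons is an estimate of the authors' quantification.

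The members lie on GRCm38 at chromosome 8, 46986887 to 47096762 (Enpp6, plus strand), chromosome 6, 146108299 to 146502223 (Itpr2, minus), chromosome 10, 39368855 to 39565381 (Fyn, plus), chromosome 14, 46383520 to 46390669 (Bmp4, minus), chromosome 1, 94020451 to 94028334 (Neu4, plus), chromosome 3, 102734529 to 102801513 (Tspan2, plus) and chromosome 10, 7119063 to 7212237 (Cnksr3, minus). All are annotated as protein coding, and the share of their 31-base words also found in other genes was at most 0.808%. Antisense genes overlap exons of Bcas1, Enpp6, Fyn, Bmp4 and Tspan2. The strand setting of the quantification is not given in the sources used here, so reads from these members and their antisense partners may not be told apart.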

How the data were processed

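Total RNA libraries were made with a stranded kit that removes ribosomal RNA, per the labels' protocols. The authors deposited TPM per Ensembl transcript, summing to 1000000 per library, for 93666 transcripts. STAR, Picard and mm10 are named in the submitters' processing notes, without role or version. Here TPM was summed by symbol, with 27 date-like names restored through transcript identifiers (96.5% of identifiers were found in GENCODE M21). It was divided by median-of-ratios factors from 11432 genes above 0 in all libraries. Genes whose mean deposited TPM reached 1 were tested with limma 3.58.1 (R 4.3.3) on log2(rescaled TPM + 1), with 1 mean per genotype and stage over 18 libraries, trended eBayes, Benjamini-Hochberg adjustment within each of 9 comparisons and a threshold of 0.05. The method was tested on simulated data. Transcript shares were compared with exact permutation tests (scipy 1.17.1).

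Same-clone libraries of different stages come from 1 line, so the clone pairs stages. Deviations correlated at 0.12 on average within clones (-0.01 to 0.41, 9 of 18 over 0.1) and -0.06 between clones. They were taken from the mean of each group of 3 libraries, which ties the value between clones to that within clones. The -0.06 is therefore no separate baseline. All 8 members were named. Other genes were named from among the 2 largest called rises and falls per list and comparison, and not all of these are given. Fixed stage references (Gpr17, Tcf7l2, Pdgfra, Mbp and Mog) were also named, and likeness genes by Pearson's r. Thap1, Olig2, Sox10, Mki67, Gfap and markers listed at 0 were named after their values were seen. Alternatives were other scalings, pseudocounts, filters and fits, the clone as a block, and leaving out clones or libraries. The fits on protein-coding transcripts and without control D7 at DIV4 were added after seeing the data. The members and lists were chosen with earlier results of these data known.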

Additional observations from a re-analysis of the deposited data

Results flagged for a closer look

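The change of Bmp4 from OPC to DIV2 is listed because the clones of the genotypes moved in opposite directions on rescaled TPM. In control clones D7, D3 and E8 the log2 changes were -0.54, -0.36 and -1.11, and in null clones 3F, D6 and 7F they were 2.71, 2.08 and 2.28. The interaction, null change minus control change, was 3.03 (limma adjusted p = 0.128), so the difference did not pass the test with all 18 libraries and without the clone in the fit. On deposited TPM the opposite directions were not seen: the 3 control clones were also higher at DIV2, and the control change of Bmp4 was 0.65. Groups of 3 libraries are too small for a search for single outlying samples.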

How the results depend on the processing

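Of 1359 values recomputed under alternatives, 1254 kept their direction and side of the threshold, 48 changed sign, 33 newly passed and 24 no longer passed. None of the 14 member values called in the main fit (rescaled TPM, 18 libraries, clone not in the fit) changed sign. Fyn and Cnksr3, called higher in null OPCs on deposited TPM, had the other sign in the main fit. The cause of each change was not tested.

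On deposited TPM these changed sign: Enpp6, Fyn and Cnksr3 in OPCs (0.35, 1.60 and 1.0), Bcas1 at DIV4 (-0.15), Bmp4 from OPC to DIV2 in control (0.65) and the Neu4 interaction to DIV2 (-0.17). Quantile scaling gave Bcas1 -0.11 in OPCs and -0.03 at DIV4, Fyn 0.05 from DIV2 to DIV4 in null and the Enpp6 interaction to DIV4 0.02. Scaling to the coding total gave Cnksr3 0.22 in OPCs and Itpr2 0.03 from DIV2 to DIV4 in null. The top transcript alone gave Cnksr3 0.25, Bcas1 -0.21 at DIV4 and Itpr2 0.04, coding transcripts gave Bcas1 -0.03 in OPCs, and a pseudocount of 0.1 gave Cnksr3 0.08. Without the control D3 OPC library Enpp6 was 0.80 and Cnksr3 0.39 in OPCs and the Neu4 interaction -0.01. Without control D7 at DIV4 Tspan2 was 0.12 at DIV4 and -0.45 from DIV2 to DIV4 in control, and the interactions to DIV4 were 0.20 for Enpp6 and 0.24 for Tspan2.

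Leaving out 1 clone at a time, null minus control ranged from -0.39 to 0.67 (Bcas1), -1.03 to 0.80 (Enpp6) and -0.51 to 0.39 (Cnksr3) in OPCs, -0.32 to 0.20 for Tspan2 at DIV2, and -0.14 to 0.18 (Bcas1) and -1.20 to 0.12 (Tspan2) at DIV4. From DIV2 to DIV4 it gave -0.06 to 0.66 (Bmp4), -0.12 to 0.43 (Neu4) and -0.13 to 0.74 (Tspan2) in control, and -0.44 to 0.19 (Itpr2) and -0.45 to 0.07 (Fyn) in null. Interactions ranged from -0.91 to 0.29 (Bcas1) and -1.64 to 0.38 (Enpp6) to DIV2, and -0.04 to 0.29 (Bcas1), -0.68 to 0.24 (Enpp6) and -0.23 to 0.62 (Cnksr3) to DIV4.

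Members called in OPCs were 0, but 6 on deposited TPM, 1 without the D3 OPC library and 0 to 1 leaving out clones. At DIV2 they were 1, but 2 under quantile scaling and without the D3 OPC library, 0 without a filter, with only the groups compared or on coding transcripts, and 0 to 3 leaving out clones. At DIV4 leaving out clones gave 0 to 1. From OPC to DIV2 in null it gave 3 to 7. From DIV2 to DIV4, 1 was called in control without D7 at DIV4, and in null 3 with only the groups compared, 1 with the replicate block and 0 to 1 leaving out clones. The interaction to DIV2 called 0, but 6 on deposited TPM, 1 on the coding total, 2 with the replicate block (Itpr2 and Bmp4), 1 without the D3 OPC library and 0 to 2 leaving out clones. The block changed no other member's call than these, Bmp4 from DIV2 to DIV4 in null and Neu4 from OPC to DIV2 in control.

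Genes called in OPCs were 1481, with 10446 on deposited TPM, 2846 on the coding total, 230 with only the groups compared, 2252 without the D3 OPC library and 328 to 2361 leaving out clones. At DIV2 they were 359, with 203 on deposited TPM, 229 at a mean of at least 5 TPM, 587 without D7 at DIV4 and 110 to 656 leaving out clones. At DIV4 they were 622, with 358 on deposited TPM, 165 with only the groups compared, 947 without the D3 OPC library and 122 to 1108 leaving out clones. From OPC to DIV2 control had 4346, with 10785 on deposited TPM, 2041 with only the groups compared and 2628 to 4688 leaving out clones, and null had 3472, with 2297 on deposited TPM and 1413 to 4133. From DIV2 to DIV4 control had 30, with 46 on deposited TPM and with the block, 48 on the coding total, 77 under quantile scaling, 122 without the D3 OPC library, 729 without D7 at DIV4 and 10 to 293 leaving out clones. Null had 262, with 67 on deposited TPM, 1975 with only the groups compared, 523 with the block, 465 without the D3 OPC library, 676 without D7 at DIV4 and 6 to 805. The interaction to DIV2 had 45, with 9366 on deposited TPM, 262 on the coding total, 78 with the block, 98 without a filter, 75 on the top transcript, 360 without the D3 OPC library, 116 without D7 at DIV4 and 10 to 261. The interaction to DIV4 had 3, with 1 at a mean of at least 5 TPM, 13 without a filter, 7 at another pseudocount, 0 on coding transcripts, 5 without the D3 OPC library, 7 without D7 at DIV4 and 2 to 39.

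TPM keeps no depth, so sampling noise in low members such as Bmp4 and Neu4 could not be separated from spread between clones.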

Other observations

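Transcript forms of Bcas1 differed between genotypes at all stages, a pattern chosen after the values were seen and not tested. Bcas1-202, a long coding form of 12 exons, held 7.59% to 10.5% of Bcas1 TPM in control OPCs and 1.16% to 1.99% in null OPCs. At DIV2 it held 2.80% to 3.13% against 0.664% to 0.992%, and at DIV4 1.26% to 4.28% against 0.633% to 0.986%. The Bcas1 transcript ENSMUST00000145920, an annotated processed transcript of 5 exons, went the other way, with 1.09% to 1.93% in control and 4.30% to 6.96% in null OPCs, 0.855% to 1.19% against 2.13% to 2.55% at DIV2, and 0.872% to 1.24% against 1.65% to 2.21% at DIV4.

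The Enpp6 transcript ENSMUST00000149593, a short coding form of 3 exons also chosen after its values were seen, held 4.36% to 5.75% of Enpp6 TPM in control and 1.94% to 2.30% in null clones at DIV2, and 4.94% to 6.85% against 1.22% to 1.81% at DIV4. In OPCs its shares ranged from 0% to 55.2% in control and 0% to 3.91% in null clones, where Enpp6 itself was low.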
